A study of Mus musculus with 6 samples.

Results

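Collagens are matrix proteins built from 3 chains wound into a triple helix, and each chain is made by a gene of its own, named Col followed by the type and the chain. Every row of the gene table whose symbol had that form was taken, which gave 44 of the 55487 genes. They comprised 11 chains of the fibrillar types, the 6 chains of type IV and 27 chains of other types. Their RNA was sequenced in bulk from primary tubular epithelial cells of the mouse kidney, grown in culture. Of the 6 libraries, 3 were controls, labelled wild type and given a control adenovirus, and 3 were labelled ELF3 knockout and had been given the Cre-expressing adenovirus AdvCre to delete Elf3, an ETS-family transcription factor of epithelia. All 6 had been stimulated with TNFα and IFNγ, so no unstimulated level was measured, and all carry 1 batch label. The floxed allele, the strain and age of the animals, the doses and the times are not stated in the sources used here, and the deletion cannot be told apart from the presence of Cre itself.

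Fibrillar collagens (types I, II, III, V, XI, XXIV and XXVII) pack into the banded fibrils of connective tissue, and in the kidney they accumulate between tubules during fibrosis. Type IV collagen forms the sheet-like network of basement membranes. Its 6 chains assemble into only 3 kinds of trimer: the widespread one from Col4a1 and Col4a2, one from Col4a3, Col4a4 and Col4a5 that replaces it in the mature glomerular and distal tubular basement membrane, and one from Col4a5 and Col4a6 found in Bowman's capsule and some tubules. Mutations in COL4A3, COL4A4 or COL4A5 cause Alport syndrome in humans, a hereditary nephropathy.

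Total estimated counts lay between 8961779 and 10774195 per library, and 3 counts corresponded to 0.282 to 0.337 CPM (counts put on 1 library size with TMM), a floor that covers counting error only. Elf3 itself (ENSMUSG00000003051) had 201, 250 and 206 counts in controls and 38, 32 and 21 in knockout libraries, a log2 fold change of -2.84 (adjusted p = 6.84e-14); its exons overlap those of Gm26642 on the other strand. Markers of tubular epithelium were abundant: Cdh1, the epithelial cadherin, averaged 574 CPM in controls and 672 CPM in knockouts, and the 14 listed tubular markers summed to 4574 to 4693 TPM (a deposited level scaled per transcript length and library) in controls and 6311 to 6506 TPM in knockouts, with Aqp2, the water channel of the collecting duct, at 0. Of the 14 markers of fibroblasts and pericytes, Dpt, Lum and Tcf21 were at 0 in every library. Their summed level was 183.9 to 208.2 TPM in controls and 238.9 to 240.6 TPM in knockouts, nearly all of it Acta2, a smooth muscle actin. Without Acta2 the sum was 12.6 to 16.0 TPM and 12.2 to 17.0 TPM. Within this list Pdgfra, a growth factor receptor of fibroblasts, rose from 3.23 ± 1.21 to 5.80 ± 0.917 CPM (SD, n = 3 each, adjusted p = 0.00988) and Pdgfrb, its counterpart on pericytes, was 2.41 ± 0.212 and 1.52 ± 0.68 CPM (adjusted p = 0.155). The Pdgfra call passed in 9 of 14 alternatives (adjusted p from 0.00201 to 0.286) and was lost on the TPM scale (0.222 to 0.286), without control 3 (0.0648) and without knockout 3 (0.0639). Endothelial markers summed to 17.4 to 22.2 TPM in controls and 25.1 to 28.8 TPM in knockouts, with Tie1 at 0, and leukocyte markers to 31.2 to 34.5 TPM and 24.8 to 43.9 TPM, with Cd3e at 0. The part of these cells in the collagen levels was not tested, and in bulk RNA fewer cells of a type and less RNA per cell cannot be told apart.

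Of the 44 chains, 28 had enough counts to be tested. Between knockout and control 17 of them passed an adjusted p of 0.05 (edgeR's quasi-likelihood test, Benjamini-Hochberg adjustment over all 13755 genes tested), 11 higher and 6 lower in knockouts. Over all tested genes 36.6% passed, 18.3% higher and 18.3% lower. The CPM values of the 2 groups did not overlap for 19 of the 28 chains, against 46.7% of all tested genes. The median log2 fold change of the tested chains was 0.36 and that of all tested genes -0.01. The p-values measure the spread between these libraries, which may be technical, since the labels do not say that replicates came from separate animals or cultures. By class, among fibrillar chains 5 rose and 2 fell of 10 tested, among type IV chains 2 rose and 4 fell of 6, and among other types 4 rose and 0 fell of 12.

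**Figure D1:**
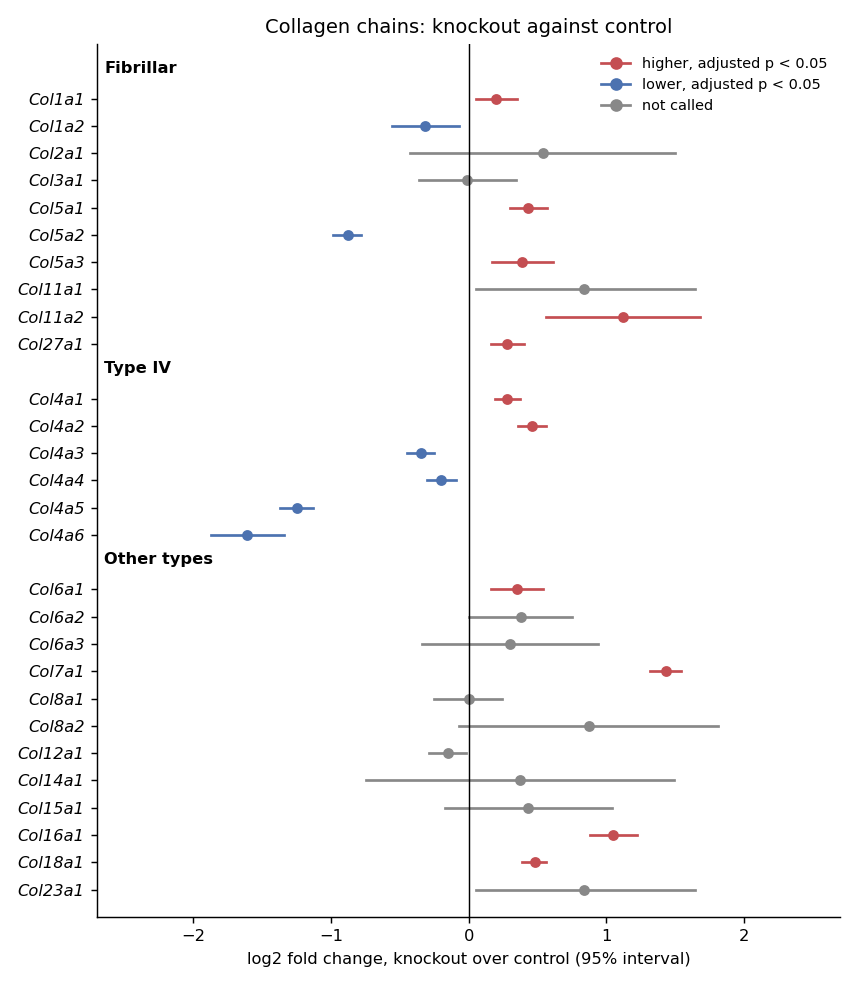
Log2 fold change, knockout over control, of the 28 tested collagen chains with 95% intervals from edgeR (not adjusted for the number of genes), by class; red chains rose, blue chains fell and grey chains did not pass an adjusted p of 0.05. Col7a1 and Col11a2 lie farthest to the right among the chains that rose, and Col4a6 and Col4a5 farthest to the left.

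The type IV genes lie head to head in the mouse genome (mm10), each set of neighbours reading outward from a common region. On chromosome 8, Col4a1 (11198423 to 11312826, minus strand) and Col4a2 (11312805 to 11449287, plus strand) share 22 bases at their starts. On chromosome 1, 71 bases separate the starts of Col4a4 (82448423 to 82586849, minus strand) and Col4a3 (82586921 to 82722059, plus strand). On chromosome X, 1308 bases separate the starts of Col4a6 (141165403 to 141474076, minus strand) and Col4a5 (141475385 to 141689234, plus strand). Promoter sequences are shown for Col4a5 and Col4a6, the 2 largest falls, and for Col7a1 and Col16a1, the 2 largest rises, among tested chains with more than 5 CPM in both groups, a choice made after the values were seen. The interval between Col4a4 and Col4a3 is shown because it is the shortest stretch between type IV neighbours whose starts do not overlap. Elf3 encodes a factor whose family binds DNA at a GGAA core. The promoter sequences cover the 200 bases from 250 to 51 bases before the RefSeq start of each gene, and the interval is printed whole, on GRCm38.p6, 5′ to 3′ along the strand given. Capitals mark GGAA or TTCC, the same core read on the other strand.
Col4a5, chrX:141475169-141475368, plus strand: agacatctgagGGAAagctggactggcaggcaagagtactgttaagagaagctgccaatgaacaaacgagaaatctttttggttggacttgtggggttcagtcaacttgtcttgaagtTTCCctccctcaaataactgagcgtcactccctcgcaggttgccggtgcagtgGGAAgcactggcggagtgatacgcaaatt
Col4a6, chrX:141474127-141474326, minus strand: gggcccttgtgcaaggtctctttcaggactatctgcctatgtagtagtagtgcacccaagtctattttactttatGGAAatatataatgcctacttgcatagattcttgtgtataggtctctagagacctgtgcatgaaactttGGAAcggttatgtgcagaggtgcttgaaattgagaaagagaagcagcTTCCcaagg
Between Col4a4 and Col4a3, chr1:82586850-82586920, plus strand: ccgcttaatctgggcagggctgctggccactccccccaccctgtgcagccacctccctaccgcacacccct
Col7a1, chr9:108953336-108953535, plus strand: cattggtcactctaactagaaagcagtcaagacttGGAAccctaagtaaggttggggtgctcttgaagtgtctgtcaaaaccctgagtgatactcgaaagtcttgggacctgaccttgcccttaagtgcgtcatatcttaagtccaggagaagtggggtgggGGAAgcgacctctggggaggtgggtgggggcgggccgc
Col16a1, chr4:130047590-130047789, plus strand: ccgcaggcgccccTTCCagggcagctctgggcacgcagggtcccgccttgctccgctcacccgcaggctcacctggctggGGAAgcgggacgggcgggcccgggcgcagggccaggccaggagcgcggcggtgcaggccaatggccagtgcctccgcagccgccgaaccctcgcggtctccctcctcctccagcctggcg

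The core occurred 3 times in the Col4a5 window, 3 times in that of Col4a6, 2 times in each of the Col7a1 and Col16a1 windows and 0 times between Col4a4 and Col4a3. The same 200-base window held at least 1 core in 89.2% of 32851 RefSeq promoters, with a median of 2. The longer forms AGGAAG and CGGAAG contain the core and were sought on both strands. They were found 0 times in the 5 sequences, and in 23.9% and 9.25% of the promoters. The interval between Col4a4 and Col4a3 is only 71 bases long, so these shares for 200 bases cannot be set against it. These matches describe the letters only; no binding was measured.

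Type IV split by trimer. Both chains of the widespread trimer rose, and the 4 chains of the other trimers fell. Col4a1 (ENSMUSG00000031502) was counted at 473, 465 and 507 CPM in controls and at 565, 587 and 602 CPM in knockout libraries. Every knockout library lay above every control, and the log2 fold change was 0.28 (95% interval 0.19 to 0.37, adjusted p = 1.04e-05). Its partner Col4a2 (ENSMUSG00000031503) stood at 279, 281 and 306 CPM in controls and 373, 403 and 412 CPM in knockouts. Again the groups did not overlap, with a log2 fold change of 0.46 (0.36 to 0.56, adjusted p = 9.68e-09). The exons of these neighbours overlap on opposite strands, and the strand setting of the counting is not given, so reads in the shared 22 bases cannot be assigned.

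Col4a3 (ENSMUSG00000079465), a chain of the trimer of the mature glomerular basement membrane, was at 266, 275 and 262 CPM in controls and 212, 208 and 210 CPM in knockouts, a log2 fold change of -0.35 (-0.45 to -0.25, adjusted p = 6.59e-07). Its exons overlap those of C430014B12Rik on the other strand. Col4a4 (ENSMUSG00000067158) was at 192, 200 and 191 CPM against 171, 172 and 168 CPM, with a log2 fold change of -0.20 (-0.30 to -0.09, adjusted p = 0.00266). For both genes the knockout libraries lay below all controls. The Col4a4 call was lost when the deposited TPM were tested with limma (adjusted p from 0.124 to 0.131 over 3 settings, against 0.000751 to 0.0300 over the 11 count-based alternatives).

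The largest falls among tested chains were on chromosome X. Col4a5 (ENSMUSG00000031274), the chain that both of the specialised trimers need, was at 166, 175 and 173 CPM in controls and 70.2, 73.8 and 71.7 CPM in knockouts. That is a 2.38-fold lower level with no overlap (log2 fold change -1.25, -1.37 to -1.13, adjusted p = 2.38e-17). Col4a6 (ENSMUSG00000031273), its head-to-head neighbour, was at 23.1, 22.4 and 26.0 CPM against 8.41, 8.09 and 6.95 CPM. It was 3.04-fold lower in knockouts (log2 fold change -1.61, -1.87 to -1.34, adjusted p = 1.96e-11). Both calls held in all 14 alternatives, between -1.28 and -1.21 for Col4a5 and between -1.65 and -1.24 for Col4a6 on the log2 scale. The 441 tested genes of chromosome X had a median log2 fold change of -0.09. Markers of podocytes and parietal cells, glomerular cells that also make these chains, summed to 228.4 to 237.7 TPM in controls and 176.9 to 206.1 TPM in knockouts. Cldn1, a tight-junction claudin, was the most abundant of these markers, and without it the sum was 61.6 to 68.1 TPM in controls and 100 to 121 TPM in knockouts; its part in the type IV levels was not tested.

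**Figure D2:**
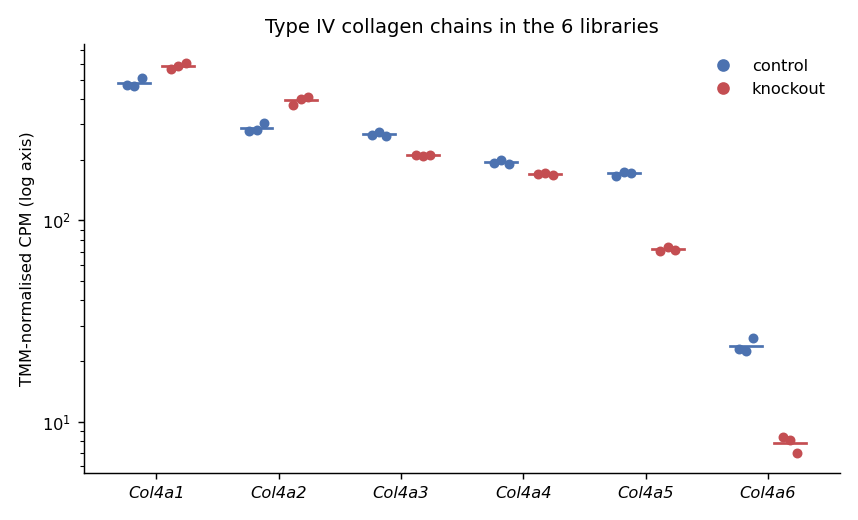
Level of the 6 type IV collagen genes in each library, in CPM on a log axis, with the mean of each group as a bar; 3 control and 3 knockout libraries per gene. Col4a1 and Col4a2 are higher in knockouts, and Col4a3, Col4a4, Col4a5 and Col4a6 are lower, with no overlap between the groups for any of the 6.

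Because TPM is scaled per length, chains can be compared within a library. The Col4a1 to Col4a2 TPM ratio was 1.63, 1.62 and 1.61 in controls and 1.51, 1.40 and 1.42 in knockouts. The Col4a3 to Col4a4 ratio was 1.60, 1.73 and 1.71 against 1.53, 1.46 and 1.62, and these ranges overlapped. The Col4a5 to Col4a6 ratio was 8.67, 9.62 and 8.07 in controls and 10.2, 11.4 and 12.4 in knockouts, so that Col4a6 was the lower chain in every library and lower still, relative to Col4a5, in knockouts. With rises and falls in opposite directions, the summed type IV level was 352 ± 7.67 TPM in controls and 358 ± 14.7 TPM in knockouts, a difference of 0.03 on the log2 scale that lies within the spread of the libraries. Its share of all collagen TPM was 42.5% and 36.4%.

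**Figure D3:**
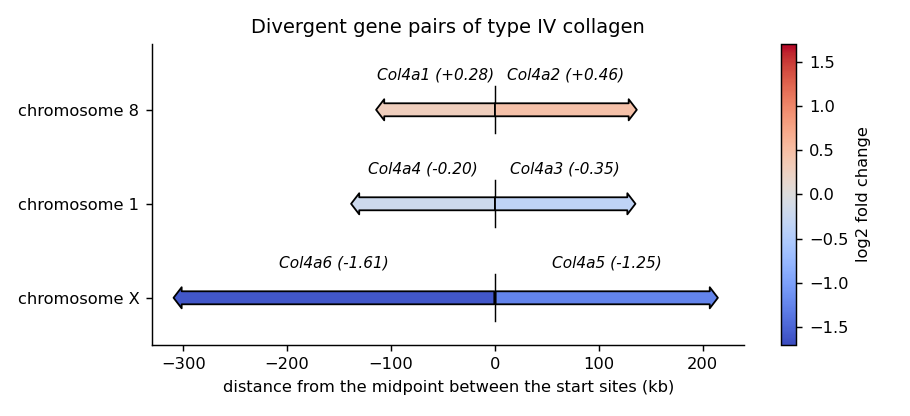
Map of the head-to-head type IV genes, drawn to scale as distance in kb from the midpoint between their start sites; arrows point in the direction of transcription and the colour and the number beside each name give the log2 fold change, knockout over control. Neighbours changed in the same direction in each case: Col4a1 and Col4a2 by 0.28 and 0.46, Col4a4 and Col4a3 by -0.20 and -0.35, and Col4a6 and Col4a5 by -1.61 and -1.25.

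Among the fibrillar chains the clearest change was in Col5a2 (ENSMUSG00000026042, chromosome 1, 45374321 to 45503282, minus strand). It encodes the α2 chain of type V, a minor collagen that sits inside type I fibrils and limits their width. Its level was 245, 242 and 256 CPM in controls and 130, 133 and 139 CPM in knockouts. The groups lay far apart, 1.84-fold lower in knockouts (log2 fold change -0.88, -0.99 to -0.78, adjusted p = 7.11e-15). It was also the most abundant fibrillar chain per length in controls, at 64.5 TPM, and fell to 34.8 TPM.

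The other type V chains went the opposite way. Col5a1 (ENSMUSG00000026837, chromosome 2, 27886425 to 28039514), the chain found in every type V trimer, was at 57.7, 56.2 and 57.1 CPM in controls and 75.6, 73.7 and 81.4 CPM in knockouts (log2 fold change 0.43, 0.30 to 0.57, adjusted p = 4.92e-06). Col5a3 (ENSMUSG00000004098, chromosome 9, 20770050 to 20815067), a chain of restricted tissue range, was at 24.7, 22.4 and 30.4 CPM against 31.2, 31.4 and 38.4 CPM (log2 fold change 0.39, 0.17 to 0.61, adjusted p = 0.00452). The ratio of Col5a1 to Col5a2 in TPM was 0.326, 0.223 and 0.249 in controls and 0.611, 0.608 and 0.628 in knockouts, without overlap. Neither rise passed on the TPM scale, where the adjusted p of Col5a1 was 0.161 to 0.241 and that of Col5a3 0.144 to 0.243; over the 11 count-based alternatives Col5a1 passed in all (7.1e-08 to 0.000177) and Col5a3 in 9 (0.000681 to 0.0597).

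Type I collagen, the main fibril former of scar tissue, was a minor product here and its 2 chains moved apart. Col1a1 (ENSMUSG00000001506, chromosome 11, 94936224 to 94953042) was at 54.2, 48.8 and 51.9 CPM in controls and 55.5, 59.6 and 62.8 CPM in knockouts, with a log2 fold change of 0.20 (0.05 to 0.35, adjusted p = 0.0302). Col1a2 (ENSMUSG00000029661, chromosome 6, 4504814 to 4541544) was at 19.0, 18.6 and 21.8 CPM against 14.6, 14.7 and 18.2 CPM, with a log2 fold change of -0.32 (-0.56 to -0.07, adjusted p = 0.0414). For both genes the groups did not overlap. Both calls were fragile: each passed in 5 of the 14 alternatives, with adjusted p from 0.00974 to 0.227 for Col1a1 and from 0.0144 to 0.718 for Col1a2. Col1a1 failed without control 2 (0.139), control 3 (0.0534), knockout 2 (0.0640) or knockout 3 (0.144), and Col1a2 failed on leaving out any 1 library other than knockout 3. The Col1a1 to Col1a2 ratio in TPM was 2.89, 2.78 and 2.12 in controls and 3.5, 3.88 and 3.09 in knockouts. Col3a1, which forms mixed fibrils with type I and lies 24.6 kb from Col5a2, was at 8.10, 9.04 and 10.9 CPM in controls and 7.85, 8.65 and 11.2 CPM in knockouts. Its groups overlapped fully, with an interval of the log2 fold change from -0.36 to 0.34 (adjusted p = 0.981). In the deposited TPM the same gene was at 3.69, 5.81 and 5.31 in controls and 2.38, 2.71 and 3.63 in knockouts, without overlap, and did not pass there either (adjusted p from 0.0887 to 0.177 over 3 TPM settings and up to 1 over all alternatives).

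Col11a2 (ENSMUSG00000024330, chromosome 17, 34039437 to 34066685), a chain of the cartilage collagen XI, was at 2.36, 1.55 and 2.76 CPM in controls and 5.61, 4.61 and 4.25 CPM in knockouts. All knockout libraries exceeded all controls, 2.17-fold on average (log2 fold change 1.12, 0.56 to 1.68, adjusted p = 0.00168). Col27a1 (ENSMUSG00000045672, chromosome 4, 63214004 to 63334991), which encodes a fibrillar chain with a shorter, interrupted helix, was at 95.1, 96.4 and 98.5 CPM against 123, 114 and 115 CPM (log2 fold change 0.28, 0.16 to 0.40, adjusted p = 0.000358). The Col27a1 call was lost on the TPM scale (0.118 to 0.158) and held in the 11 count-based alternatives (0.000126 to 0.00406). The cartilage chains Col2a1 and Col11a1 did not pass. Col2a1 was at 0.377, 0.972 and 1.32 CPM in controls and 1.23, 0.846 and 1.74 CPM in knockouts (log2 fold change 0.54, -0.43 to 1.5, adjusted p = 0.400). Col11a1 was at 1.23, 1.94 and 0.552 CPM against 2.13, 1.88 and 2.80 CPM (0.84, 0.05 to 1.64, adjusted p = 0.0900), and passed only without control 2 (1.31, adjusted p = 0.0329; range over its alternatives 0.0329 to 0.870). Summed over the 11 fibrillar genes, the level was 153 ± 2.41 TPM in controls and 140 ± 5.32 TPM in knockouts, 18.5% and 14.2% of all collagen TPM. Within this sum Col5a2 alone fell from 64.5 to 34.8 TPM, while of the 10 tested fibrillar chains 5 rose and 2 fell.

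**Figure D4:**
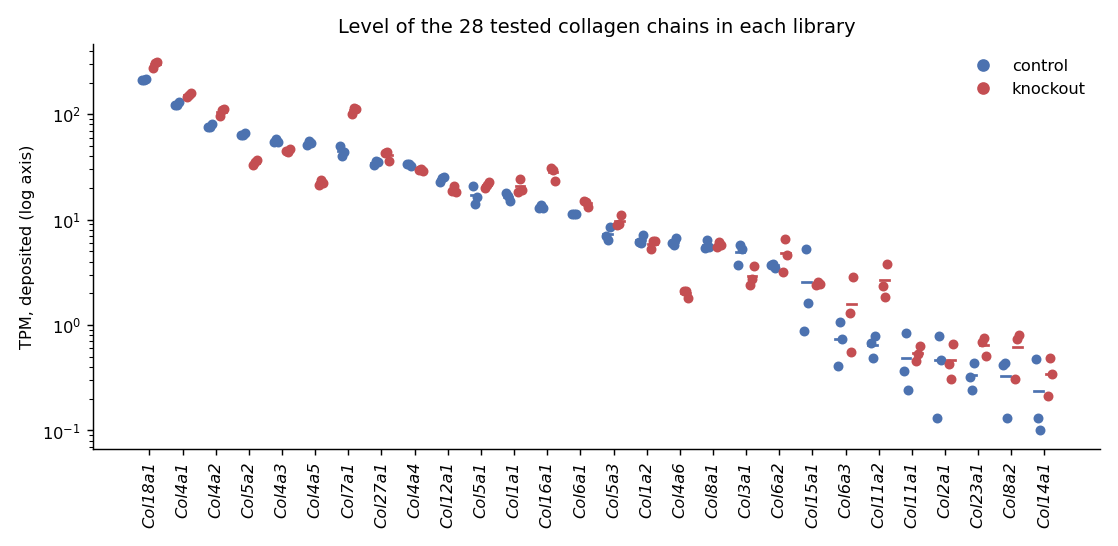
Level per length of the tested collagen genes in each library, in TPM on a log axis, ordered by their mean in controls; points are the 3 control and 3 knockout libraries per gene and short bars the group means. Col18a1, Col4a1 and Col4a2 head the order, and Col7a1, at 44.7 TPM in controls, stands at 108 TPM in knockouts.

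The other types held the largest rise among tested chains and the most abundant chain. Col7a1 (ENSMUSG00000025650, chromosome 9, 108953586 to 108984875) encodes the only chain of type VII, the anchoring fibril that ties the epidermal basement membrane to the tissue beneath, and is mutated in dystrophic epidermolysis bullosa. It was at 99.5, 99.6 and 104 CPM in controls and 265, 281 and 272 CPM in knockouts. The replicates were close and the groups far apart, 2.7-fold higher in knockouts (log2 fold change 1.43, 1.32 to 1.54, adjusted p = 7.6e-20). Per length it rose from 44.7 ± 5.02 to 108 ± 7.55 TPM (SD, n = 3 each), from 5.40% to 11% of all collagen TPM.

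Col18a1 (ENSMUSG00000001435, chromosome 10, 77052178 to 77166548, minus strand) encodes the basement membrane proteoglycan whose C-terminal fragment is endostatin. Its level was 616, 613 and 624 CPM in controls and 818, 879 and 883 CPM in knockouts. It was 1.39-fold higher without overlap (log2 fold change 0.48, 0.39 to 0.56, adjusted p = 1.82e-10), and at 213 ± 0.954 and 297 ± 19.6 TPM it was the most abundant collagen per length in both groups. Its relative Col15a1, the other multiplexin, was scarce at 1.51, 5.15 and 3.09 CPM in controls and 4.71, 4.23 and 4.25 CPM in knockouts (log2 fold change 0.43, -0.17 to 1.04, adjusted p = 0.267). Control 2 held the highest value of the 6, and without it Col15a1 passed at 0.96 (adjusted p = 0.0257; range over its alternatives 0.0257 to 0.865).

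Of the chains that bind to the surface of fibrils, Col16a1 (ENSMUSG00000040690, chromosome 4, 130047840 to 130099283) rose. It was at 26.5, 27.6 and 24.3 CPM in controls and 54.0, 54.8 and 53.5 CPM in knockouts, 2.07-fold higher (log2 fold change 1.05, 0.88 to 1.22, adjusted p = 7.81e-12). Col12a1, an abundant member of the same group, was at 104, 108 and 116 CPM against 97.8, 106 and 90.3 CPM, with overlapping groups (log2 fold change -0.15, -0.29 to -0.02, adjusted p = 0.0682). In the deposited TPM Col12a1 was at 22.7, 25.1 and 25.5 in controls and 18.6, 20.9 and 18.3 in knockouts, without overlap. It passed as lower in 3 of its 14 alternatives, among them without knockout 2 (-0.21, adjusted p = 0.0193; range over its alternatives 0.0193 to 0.368). Col14a1 was near the floor at 1.13, 0.486 and 0.331 CPM against 0.337, 1.03 and 1.16 CPM (log2 fold change 0.37, -0.75 to 1.49, adjusted p = 0.635).

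Type VI collagen forms beaded filaments close to basement membranes, from Col6a1, Col6a2 and a further chain. Col6a1 (ENSMUSG00000001119, chromosome 10, 76708792 to 76726168, minus strand) was at 26.2, 26.1 and 26.5 CPM in controls and 36.1, 34.2 and 30.4 CPM in knockouts, a log2 fold change of 0.35 (0.16 to 0.54, adjusted p = 0.00329). The groups did not overlap; the call was lost on the TPM scale (0.06 to 0.0959) and held in the 11 count-based alternatives (0.00161 to 0.0160). Col6a2 was at 8.57, 8.65 and 7.84 CPM in controls and 7.52, 14.6 and 10.2 CPM in knockouts. Knockout 1 was the lowest of the 6 and knockout 2 the highest, and the difference did not pass (log2 fold change 0.38, adjusted p = 0.109) except without knockout 1 (0.57, adjusted p = 0.0103; range over its alternatives 0.0103 to 0.747). Col6a3 was at 1.98, 2.23 and 1.88 CPM against 2.58, 2.54 and 2.41 CPM (0.30, -0.34 to 0.94, adjusted p = 0.486).

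The remaining tested chains of other types did not pass. Col8a1, of the hexagonal network of endothelial basement membranes, was at 15.7, 18.9 and 16.1 CPM in controls and 16.5, 17.7 and 16.4 CPM in knockouts. The 95% interval of its log2 fold change, from these libraries only, was -0.25 to 0.24 (adjusted p = 0.987). Its partner Col8a2 was at 1.04, 1.07 and 0.331 CPM against 0.785, 1.79 and 1.93 CPM (0.87, -0.07 to 1.81, adjusted p = 0.146). The transmembrane collagen Col23a1 was at 1.04, 0.777 and 1.44 CPM against 1.68, 2.44 and 1.64 CPM. Its groups did not overlap, but the adjusted p was 0.0919 (0.84, 0.05 to 1.64). Summed over the 27 genes of other types, the level was 323 ± 0.783 TPM in controls and 486 ± 26.3 TPM in knockouts (SD, n = 3 each), a log2 ratio of 0.59, and the share of all collagen TPM was 39.0% and 49.4%. All collagen genes together summed to 821, 825 and 837 TPM in controls and 932, 1014 and 1007 TPM in knockouts.

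A further 16 chains were too low to test. Col6a5, Col6a6 and Col9a1 were at 0 in every library, below 3 counts of each library's total. The other 13 had between 1 and 54 counts over the 6 libraries. Col26a1 had 28 counts in controls and 5 in knockouts, and Col20a1 16 and 38. Col9a3, a chain of cartilage collagen IX, had 7 and 25, Col22a1 4 and 12, and Col13a1 0 and 8. Col17a1, the transmembrane collagen of hemidesmosomes, had 11 and 4. Fitted without the count filter, Col26a1 had a log2 fold change of -2.39 (adjusted p = 0.0139), on these few counts. The rest, Col6a4, Col9a2, Col10a1, Col19a1, Col24a1, Col25a1 and Col28a1, had at most 4 counts in either group.

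Chains are modified and chaperoned in the endoplasmic reticulum before they leave the cell. Of 24 genes for this step 22 were tested, and 7 rose and 4 fell, 50% in all against 36.6% of all tested genes, with a median log2 fold change of 0.07. Plod2, the lysyl hydroxylase of telopeptides, rose from 236 ± 2.59 to 319 ± 13.2 CPM (SD, n = 3 each, 1.35-fold, adjusted p = 1.17e-08), and Fkbp10, a chaperone that acts with it, rose 1.55-fold (adjusted p = 1.16e-06). Slc39a13, a zinc transporter mutated in a form of Ehlers-Danlos syndrome, rose from 47.3 ± 3.68 to 80.2 ± 2.33 CPM (adjusted p = 3.12e-10). Creb3l1, a membrane-bound transcription factor that activates collagen genes in bone, rose 1.81-fold (adjusted p = 1.66e-06). P3h2, the prolyl 3-hydroxylase that acts on type IV collagen, fell from 19.7 ± 1.12 to 8.71 ± 1.16 CPM (2.25-fold lower, adjusted p = 2.62e-08), and Mia2, which helps to load large cargo for export, was 1.28-fold lower (adjusted p = 2.06e-06). Exons of Slc39a13, Plod2, P3h2 and Fkbp10 overlap those of another gene, so their counts may hold reads of a neighbour.

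Outside the cell, propeptides are cut off and chains are crosslinked. Of 17 genes for these steps 14 were tested, 7 rose and 3 fell, 71.4% in all against 36.6% of all tested genes, with a median log2 fold change of 0.36. The procollagen C-proteinase Bmp1 rose from 293 ± 5.44 to 521 ± 6.71 CPM (SD, n = 3 each, 1.78-fold, adjusted p = 8.77e-16), while Tll1, its homologue with the same activity, fell from 33.3 ± 2.00 to 7.12 ± 0.569 CPM (4.66-fold lower, adjusted p = 1.13e-15). Among crosslinking enzymes the lysyl oxidase Loxl4 rose from 22.7 to 61.5 CPM (2.72-fold, adjusted p = 5.07e-14). Loxl2, a lysyl oxidase that acts on type IV collagen, rose 1.39-fold. Pxdn, the peroxidase that forms the sulfilimine bonds between type IV trimers, was at 582 ± 26.7 and 705 ± 47.1 CPM (1.21-fold higher, adjusted p = 2.62e-05). The transglutaminase Tgm2 was 1.3-fold lower. Exons of Loxl2 and Tgm2 overlap those of other genes on the opposite strand.

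Of 11 receptors and uptake proteins 9 were tested, 3 rose and 2 fell, 55.6% in all against 36.6% of all tested genes. Of the collagen-binding integrin α subunits, Itga1 fell and Itga2 rose, while Itga10 was at 2.71 ± 0.584 and 2.53 ± 0.278 CPM (adjusted p = 0.839) and Itga11 was too low to test. Itga1, whose product prefers type IV collagen, fell from 202 ± 11.6 to 62.3 ± 3.06 CPM (3.24-fold lower, adjusted p = 5.82e-20). Its counts were fractional, as counts divided between genes would be, and its exons overlap those of Gm49395 on the same strand. Itga2, whose product prefers type I collagen, rose from 146 to 208 CPM (1.43-fold, adjusted p = 6.16e-09). Their common partner Itgb1 rose 1.10-fold (adjusted p = 0.00521), Mrc2, a collagen uptake receptor, was at 1.45 and 3.21 CPM (adjusted p = 0.00975), and Cd44 was 1.23-fold lower (adjusted p = 1e-04). The last 3 calls were lost on the TPM scale. Over the 11 count-based alternatives Itgb1 and Cd44 passed in all and Mrc2 in 9 (adjusted p up to 0.0816). The log2 fold change of Mrc2 ranged from 0.24 to 1.34 over all 14 alternatives.

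Of 20 other basement membrane genes 17 were tested, 7 rose and 7 fell, 82.4% in all against 36.6% of all tested genes. The laminin chains Lama3 and Lamb3, of the kind that anchors epithelia at hemidesmosomes, rose from 168 to 327 CPM and from 188 to 340 CPM. Exons of Lama3 overlap those of Gm29200 on the other strand. Sparc, which binds collagen, rose 1.72-fold and Hspg2, the proteoglycan perlecan, 1.39-fold, whereas Npnt, a ligand of a kidney integrin, was 1.34-fold lower. Of 8 collagenases and gelatinases only 4 were tested, 3 rose and 0 fell, against 18.3% of all tested genes in each direction. Mmp9, a gelatinase that cleaves type IV collagen, was 6.57-fold higher in knockouts, Mmp2 rose from 16.4 to 27.2 CPM and Mmp14, a membrane-bound collagenase, from 356 to 428 CPM. Fkbp10, Pxdn and Hspg2 each passed in 13 of 14 alternatives and failed on log2(TPM + 1) without a filter, at adjusted p of 0.0750, 0.0636 and 0.0565.

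**Figure D5:**
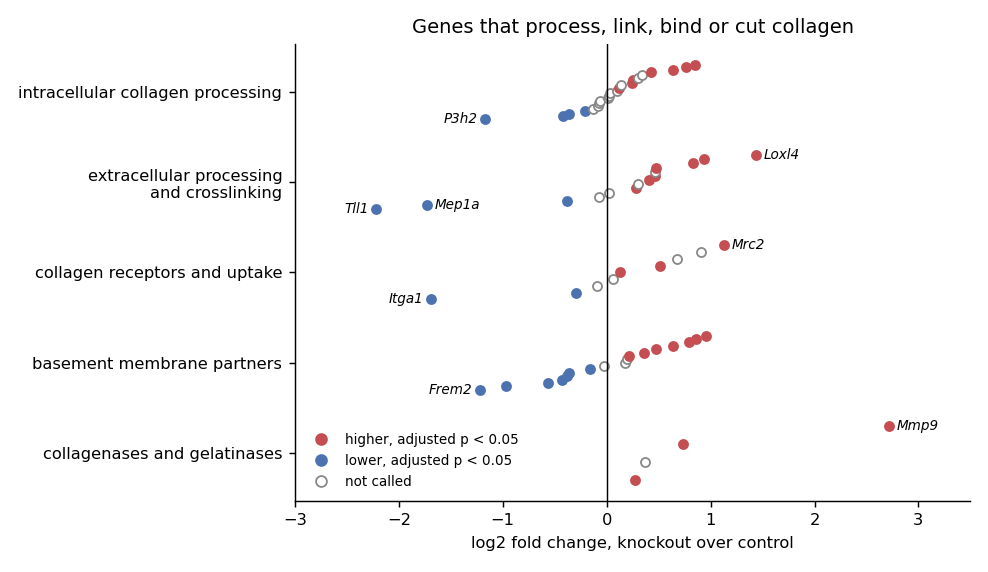
Log2 fold change, knockout over control, of each tested gene in the 5 lists of genes that process, crosslink, bind or cut collagen or share its basement membrane; red genes rose, blue genes fell and open circles did not pass an adjusted p of 0.05. Called genes that differed by at least 2-fold are named: P3h2, Tll1, Mep1a, Itga1 and Frem2 to the left, and Loxl4, Mrc2 and Mmp9 to the right.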

How the data were processed

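Per the labels' protocols, total RNA was extracted with RNeasy kits and mRNA was enriched. Per the submitters' processing notes, featureCounts, Salmon and mm10 were used, in roles not stated there. The strand setting and annotation release were not given in the sources used here. The authors deposited estimated counts per gene without normalisation, 93.3% of nonzero values being whole within 1e-06, and a table of TPM, scaled per length and library. Replicates differed by more than counting noise (chi-square per degree of freedom 2.00 to 3.51).

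Estimated counts were rounded, filtered with filterByExpr (13755 of 55487 genes kept), scaled with TMM and tested with edgeR 4.0.16 (quasi-likelihood, R 4.3.3), adjusted by Benjamini-Hochberg over all genes tested at 0.05, without covariates. The fit was tested on simulated data. Levels are TMM-normalised CPM, with SDs over 3 libraries; floors of 3 counts and all intervals reflect only these libraries. No deposited sample column was left unused. Alternatives were RLE factors, library totals, DESeq2 1.42.0, no count filter, a replicate block, limma 3.58.1 on log2(TPM + 1) and log2(TPM + 0.1) at a mean of at least 0.5 TPM and on log2(TPM + 1) without a filter, and leaving out each library. A pseudocount understates the change of low genes.

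The collagen chains and the lists (24, 17, 11, 20 and 8 companion genes, and markers of fibroblasts and pericytes, endothelium, podocytes and parietal cells, leukocytes and tubular epithelium) were chosen with earlier results of these data known. Named were Elf3, every tested chain, untested chains by name, up to 6 called genes with the smallest p of each companion list, and defining markers; some of the genes so chosen are not reported here. Positions are from GENCODE M21 on mm10. Promoter sequences are from RefSeq (GRCm38.p6), which held 35 of the 44 chains and 14 of the 17 called.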

Additional observations from a re-analysis of the deposited data

How the results depend on the processing

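Direction and call held in all 14 alternatives for 10 of the 17 called chains: Col4a1, Col4a2, Col4a3, Col4a5, Col4a6, Col5a2, Col7a1, Col11a2, Col16a1 and Col18a1. Of the 11 chains not called, 7 stayed so. The TPM scale moved counts most. On log2(TPM + 1), log2(TPM + 0.1) and log2(TPM + 1) without a filter, 1421, 1412 and 1195 genes were higher and 1291, 1304 and 980 lower, against 2516 and 2512. On each of these 3 settings 6 chains were higher, against 11; of the fibrillar chains 1 was higher and 1 lower, against 5 and 2. DESeq2 also called 1 fibrillar chain lower. Among other types 1 chain was lower with library totals, with no count filter and on log2(TPM + 0.1), against 0. On the 3 TPM settings 1 receptor gene was lower, against 2, and 2 basement membrane partners, against 7. On the first 2 of them 1 receptor gene was higher, against 3. Without a TPM filter 4 extracellular genes and 3 basement membrane partners were higher, against 7 each. With CPM in place of TPM the summed level of all chains differed by 0.19 (0.25 on TPM) and that of fibrillar chains by -0.17 (-0.13) on the log2 scale. The cause was not tested.

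On leaving out 1 library, counts ranged from 3 to 5 (fibrillar higher; 3 without knockout 3), 1 to 2 (fibrillar lower), 2 to 2 and 4 to 4 (type IV higher and lower) and 0 to 2 (other types lower; 2 without knockout 2). The log2 change of the Col6a1 to Col6a2 ratio ranged from -0.25 to 0.31 around 0.10, reversing to -0.25 without knockout 1. Same-numbered libraries did not deviate together (r = 0.00175, 0.0138 and 0.0101), so the replicate numbers were not read as pairs. With the replicate number as a block, 11 chains were higher and 6 lower, and over all genes 2561 and 2585. Depth limits the 16 untested chains and the tested chains under 3 CPM in controls, whose intervals span more than 1 log2 unit.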

Other observations

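Some neighbours of collagen in the basement membrane that were not described above, and were chosen after their values were seen, moved against Lama3 and Lamb3. Frem2 and Fras1, which form the Fraser complex that links epithelial basement membranes to the tissue beneath during development, fell from 16.1 ± 1.64 to 6.91 ± 0.822 CPM (SD, n = 3 each, adjusted p = 9.25e-08) and from 8.84 ± 0.786 to 4.51 ± 0.73 CPM (adjusted p = 0.00017). Neither passed on the TPM scale, with adjusted p up to 0.12 and 0.249 over 14 alternatives. Lama1, the laminin α chain of developing nephrons, fell from 39.8 ± 2.40 to 26.9 ± 3.60 CPM (adjusted p = 2.3e-05), and passed in all 14 alternatives. From the extracellular genes, and also chosen after its values were seen, Mep1a is a brush border metalloprotease that can cut procollagen. It had 70, 44 and 28 estimated counts in controls and 12, 13 and 17 in knockouts (log2 fold change -1.73, adjusted p = 6.36e-05). The Mep1a call passed in 13 of 14 alternatives (adjusted p up to 0.0528). Itga11, the integrin α subunit of fibroblasts that binds fibrillar collagen, had 3 counts in the controls and 28 in the knockout and was too low to test.

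Counts and TPM gave unlike sizes for some chains. Col11a2 was 2.17-fold higher by CPM and 4.12-fold by TPM. The knockout to control ratio of Col3a1 was 0.987 by CPM and 0.589 by TPM, and that of Col15a1 was 1.35 and 0.96.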
